A study of Homo sapiens with 6 samples.

Results

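The BCL2 family and the inhibitor of apoptosis (IAP) genes were examined in HCT-116, an established human colorectal carcinoma cell line. The set held 10 genes, chosen by symbol: the survival genes BCL2L1 and MCL1, the effector BAK1, the BH3-only genes BID, BIK and BCL2L11, the IAP genes XIAP, BIRC2 and BIRC3, and the IAP antagonist DIABLO. The choice was made with earlier results of these data known, so the shares over all loci given below are not a blind comparison. Each was found in 1 of the 27918 rows (genes and assembled loci) of the table. Cells were transfected with 10 nM of a control GapmeR (GapNC, 3 libraries) or of a GapmeR against the long noncoding RNA CASC9 (GapC9, 3 libraries). A GapmeR is an antisense oligonucleotide whose DNA center recruits RNase H to the paired RNA. All 6 libraries came from this line, and all received a GapmeR. The time between transfection and RNA extraction is given as 24 h in one place of the study and as 48 h in another. No source says whether the 3 libraries of a group were separate cultures, so the p-values measure the spread between these libraries, which may be technical.

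Mitochondrial apoptosis is governed by contacts among BCL2 family proteins. BCL-XL (from BCL2L1) and MCL1 hold BAK in check, and the BH3-only proteins BID, BIK and BIM (from BCL2L11) bind the survival proteins or activate BAK. Once BAK opens the outer mitochondrial membrane, cytochrome c joins APAF1 to activate caspase-9, and SMAC (from DIABLO) leaves the mitochondrion. XIAP blocks caspases directly, whereas cIAP1 (BIRC2) and cIAP2 (BIRC3) are ubiquitin ligases that act at the TNF receptor. SMAC binds all 3 of these IAP proteins.

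Values are FPKM, fragments per kilobase of transcript scaled to the mapped fragments of the library, so levels are given per length. The targeted RNA, CASC9, had listed FPKM of 0, 0.0108 and 0 in GapNC replicates 1 to 3 and of 0.0528, 0.107 and 0 in the replicates labelled GapC9. The groups could not be told apart for CASC9 (exact two-sided permutation p = 0.4, with 0.1 the smallest p possible). Every direction below therefore rests on the library labels. Depth, estimated from the commonest value of FPKM times length within a preset low window, was 22.7 to 24.4 M (mega) fragments per library. The window limits the range that this estimate could take. Epithelial marker genes summed to 1000 to 1410 FPKM per library, with 7 of 9 listed markers at 1 FPKM or more on average, VIL1 near 0 in all 6 libraries, and CLDN3 listed at 0 in 5 libraries and at 4.21 FPKM in GapC9 replicate 3. Leukocyte markers summed to at most 0.143 FPKM and endothelial markers to at most 0.11 FPKM. Fibroblast markers summed to 4.11 to 5.68 FPKM in both groups, mostly from COL1A1 and COL3A1.

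Of the 10 genes, 2 passed an adjusted p under 0.05 (limma with Benjamini-Hochberg adjustment over all 16028 loci tested). BIK was lower and BIRC2 was higher in the libraries labelled GapC9. In bulk RNA, less transcript per cell and fewer cells with the transcript cannot be told apart. Over all loci tested, 6.99% passed this threshold, 1.89% higher and 5.1% lower. A fold rule was also applied, with the cutoffs of the study but with limma's p in place of the edgeR p used there. It required mean FPKM at least 2 times or at most 0.5 times that of GapNC with an unadjusted p under 0.05, and was passed by XIAP (higher) and by BIK and BCL2L11 (lower), against 2.1% of all loci higher and 4.32% lower. An unadjusted p under 0.05 was reached by 4 of the 10 genes and by 25.9% of all loci. The 3 libraries of one group did not overlap those of the other for XIAP and BIRC2 (higher) and for BIK and BCL2L11 (lower). Such separation was found for 34.2% of all loci, 12.6% higher and 21.6% lower. The median log2 fold change was 0.02 over the 10 genes and −0.08 over all loci. After median scaling the calls over all loci were 508 higher and 437 lower, in place of 303 and 817, and the median over all loci moved to 0.058. The 4 genes named here kept their direction under both scalings.

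**Figure D1:**
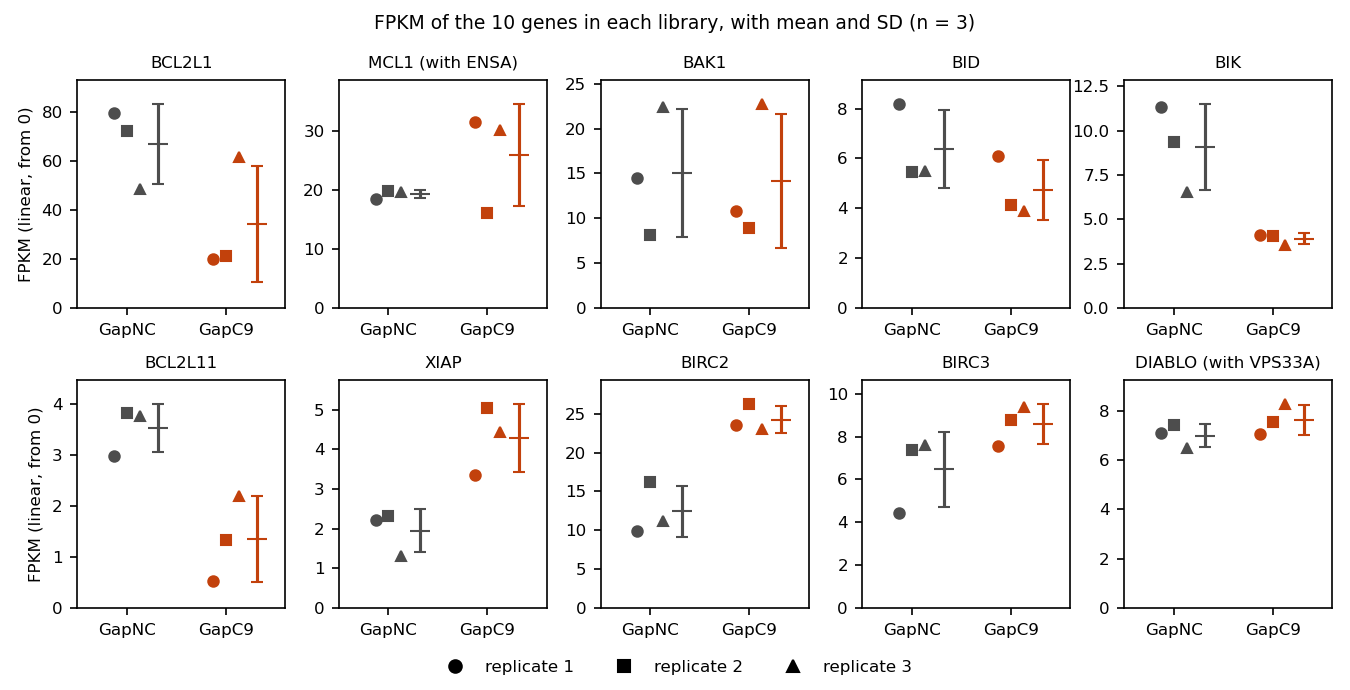
FPKM of each of the 10 genes (linear axes from 0) in the GapNC libraries (gray) and the libraries labelled GapC9 (orange), with replicate 1 as circles, 2 as squares and 3 as triangles. The horizontal mark and bar give the mean and SD (n = 3). BIK and BCL2L11 lie lower, and XIAP and BIRC2 higher, in every library labelled GapC9, whereas the 3 libraries labelled GapC9 spread from 19.9 to 61.7 FPKM for BCL2L1.

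BCL2L1 and the joined locus that holds MCL1 had the highest mean FPKM of the set in both groups. In the libraries labelled GapC9 each overlapped the next in the order. BCL2L1 (ENSG00000171552) lies at chr20:31664452-31723989 (minus strand; this and all other gene coordinates are GRCh38), and its row covers 9 annotated and 2 assembled transcripts. Its FPKM was 79.9, 72.2 and 48.5 in the GapNC libraries and 19.9, 21.3 and 61.7 in the libraries labelled GapC9. Replicates 1 and 2 labelled GapC9 were below all GapNC libraries, while replicate 3 was above the lowest of them. The means were 66.9 ± 16.3 and 34.3 ± 23.7 FPKM (SD, n = 3). The fitted log2 change of −1.14 (standard error 0.47, 95% interval −2.29 to 0.01) did not pass the test (limma adjusted p = 0.195). Without GapC9 replicate 3 it was −1.66 with a ratio of 0.308, which met the fold rule (unadjusted p = 0.00111) but not the adjusted threshold (adjusted p = 0.0749). An antisense gene, AL117381.1, overlaps BCL2L1 and was listed at 0.307 to 0.882 FPKM. The use of strand in the counting is not given in the sources used here.

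MCL1 (ENSG00000143384, chr1:150574551-150579738, minus strand) has no row of its own. It shares one with its neighbors ENSA and ADAMTSL4-AS1, so that only 4 of the 22 transcripts in that row belong to MCL1. The FPKM of this joined locus was 18.6, 19.8 and 19.7 in the GapNC libraries and 31.6, 16.1 and 30.3 in GapC9-labelled libraries. The GapNC libraries lay close together, and the libraries labelled GapC9 fell on both sides of them. The log2 fold change was 0.36 (standard error 0.27, limma adjusted p = 0.449). Without GapC9 replicate 2 it was 0.67 and the groups no longer overlapped, with an adjusted p of 0.0953. How much of the locus was MCL1 cannot be read from the table.

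BAK1 (ENSG00000030110, chr6:33572547-33580293, minus strand) encodes the pore-forming effector. Its FPKM was 14.5, 8.14 and 22.4 in the GapNC libraries and 10.8, 8.96 and 22.7 in GapC9-labelled libraries. Replicate 3 was the highest in both groups, and the ranges were almost the same. The log2 fold change was −0.09 with a 95% interval of −1.27 to 1.1 (limma adjusted p = 0.931), an interval that spans more than a doubling in either direction. Its sign turned after median scaling (0.06). The ratio of BCL2L1 to BAK1 was 5.49, 8.87 and 2.16 in the GapNC libraries and 1.84, 2.38 and 2.71 in GapC9-labelled libraries. The summed FPKM of BCL2L1 and the MCL1 locus over BAK1 was 6.77, 11.3 and 3.04 against 4.76, 4.18 and 4.04. In both ratios GapNC replicate 3 lay within or below the range of the libraries labelled GapC9.

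Of the BH3-only genes, BIK was the one to pass the adjusted threshold. BIK (ENSG00000100290, plus strand, chr22:43110748-43129712) encodes a BH3-only protein of the endoplasmic reticulum and has a single annotated transcript of 953 bases. Its FPKM was 11.3, 9.38 and 6.53 in the GapNC libraries and 4.09, 4.07 and 3.53 in GapC9-labelled libraries. The lowest GapNC library was above the highest library labelled GapC9. At the estimated depths these values correspond to 244, 209 and 152 fragments against 90, 94 and 80. The mean fell from 9.06 ± 2.39 to 3.89 ± 0.32 FPKM (SD, n = 3), a ratio of 0.43, with a fitted log2 change of −1.17 (standard error 0.21, 95% interval −1.69 to −0.64, limma adjusted p = 0.0366). The adjusted p was 0.0496 without GapNC replicate 3. It was 0.0605 without GapNC replicate 1, 0.111 without GapNC replicate 2, and 0.0991, 0.125 and 0.126 without GapC9 replicates 1, 2 and 3, so that the call was lost in 5 of 6 such fits.

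BCL2L11 (ENSG00000153094, plus strand, chr2:111119378-111168447) encodes BIM, an activator of BAK that FOXO transcription factors are known to induce. Its FPKM was 2.99, 3.83 and 3.76 in the GapNC libraries and 0.525, 1.34 and 2.2 in GapC9-labelled libraries. The groups did not overlap, and the libraries labelled GapC9 were spread more widely than the GapNC libraries. The mean was 3.53 ± 0.465 and 1.35 ± 0.836 FPKM (SD, n = 3), a ratio of 0.384. The log2 fold change of −1.5 (standard error 0.47, 95% interval −2.65 to −0.36) met the fold rule but not the adjusted threshold (unadjusted p = 0.0183, adjusted p = 0.113). The rule was no longer met without GapNC replicate 2 (unadjusted p = 0.0574), without GapNC replicate 3 (unadjusted p = 0.0564) or without GapC9 replicate 1 (ratio 0.501). MIR4435-2HG overlaps BCL2L11 on the opposite strand over 49070 bases. Its FPKM was 1.65, 1.02 and 0.87 in the GapNC libraries and 0.666, 1.03 and 1.05 in GapC9-labelled libraries, and the fitted log2 fold change was −0.31 (standard error 0.29, limma adjusted p = 0.53).
The promoter of BCL2L11 is printed because BIM is a textbook FOXO target and the gene stood among the lower genes. It spans chr2:111120664-111120963 (GRCh38.p14, plus strand, RefSeq), from 250 bases before to 50 bases after a transcript start that lies 1536 bases from the annotated gene start. The capitals mark the FOXO motif GTAAACA, 223 bases before the start:
BCL2L11: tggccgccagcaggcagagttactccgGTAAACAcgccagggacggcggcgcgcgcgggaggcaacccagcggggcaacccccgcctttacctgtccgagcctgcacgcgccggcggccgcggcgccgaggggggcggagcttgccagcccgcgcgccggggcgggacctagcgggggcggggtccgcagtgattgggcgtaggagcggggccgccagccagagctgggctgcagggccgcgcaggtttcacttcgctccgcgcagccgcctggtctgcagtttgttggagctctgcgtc
On either strand, this motif was present in 3.42% of the 35116 promoter windows of the same length. The window also held 3 copies of the GC box GGGCGG, a motif found in 45.0% of windows, and no cyclic AMP response element TGACGTCA.

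BID (ENSG00000015475, chr22:17734138-17774770, minus strand) links death receptors to mitochondria once caspase-8 cleaves it. Its FPKM was 8.17, 5.47 and 5.49 in the GapNC libraries and 6.1, 4.14 and 3.91 in GapC9-labelled libraries. Only replicate 1 labelled GapC9 lay within the GapNC range, and the other two lay below it. The log2 fold change was −0.43 (standard error 0.24, limma adjusted p = 0.317). Summed over BID, BIK and BCL2L11, FPKM was 22.4, 18.7 and 15.8 in the GapNC libraries and 10.7, 9.54 and 9.63 in GapC9-labelled libraries. Divided by the sum of BCL2L1 and the MCL1 locus, the same values became 0.228, 0.203 and 0.231 against 0.208, 0.255 and 0.105. The sum of BID, BIK and BCL2L11 thus did not overlap between the groups, but its ratio to BCL2L1 and the MCL1 locus did. BIK and BCL2L11 were each separated on their own. Other BH3-only genes are not in this sum. The most abundant of them, PMAIP1, was at 24.7 to 30.7 FPKM in GapNC and at 26.4 to 37.7 FPKM in GapC9-labelled libraries.

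Of the 3 IAP genes, BIRC2 passed the adjusted threshold and XIAP the fold rule, both higher in the libraries labelled GapC9. XIAP (ENSG00000101966, plus strand, chrX:123859724-123913979) encodes the caspase inhibitor of the family. Its FPKM was 2.22, 2.32 and 1.32 in the GapNC libraries and 3.35, 5.04 and 4.45 in GapC9-labelled libraries. Every library labelled GapC9 was above every GapNC library. The mean was 1.95 ± 0.554 and 4.28 ± 0.854 FPKM (SD, n = 3), a ratio of 2.19, with a fitted log2 change of 1.11 (standard error 0.26, 95% interval 0.47 to 1.76). This met the fold rule (unadjusted p = 0.00555) but not the adjusted threshold (adjusted p = 0.0621). The rule was no longer met without GapNC replicate 3 (ratio 1.88) or without GapC9 replicate 2 (ratio just under 2). The opposite-strand XIAP-AS1 was listed at no more than 0.0915 FPKM.

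BIRC2 (ENSG00000110330, plus strand, chr11:102347211-102378670) encodes cIAP1, which holds the kinase NIK (MAP3K14) at low levels and ubiquitinates RIPK1. Its FPKM was 9.92, 16.2 and 11.2 in the GapNC libraries and 23.5, 26.2 and 23 in GapC9-labelled libraries. The groups did not overlap, and the libraries labelled GapC9 lay close together. The mean rose from 12.5 ± 3.31 to 24.2 ± 1.73 FPKM (SD, n = 3), and the fitted log2 fold change was 0.98 (standard error 0.2, 95% interval 0.5 to 1.46, limma adjusted p = 0.0431). The ratio of 1.94 was just under the fold threshold. The adjusted p was 0.0752, 0.056 and 0.107 without GapNC replicates 1, 2 and 3, and 0.114, 0.148 and 0.127 without GapC9 replicates 1, 2 and 3, so that the call was lost in each of these fits. The log2 fold change stayed between 0.84 and 1.19 in them.

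BIRC3 (ENSG00000023445, plus strand, chr11:102317450-102339403) encodes cIAP2 and is a textbook target of NF-κB. It is the neighbor of BIRC2, with 7808 bases between the genes. Its FPKM was 4.45, 7.38 and 7.59 in the GapNC libraries and 7.56, 8.76 and 9.39 in GapC9-labelled libraries. GapNC replicate 1 was the lowest library, and the ranges touched only where GapNC replicate 3 exceeded GapC9 replicate 1. The fitted log2 change of 0.43 (standard error 0.23, 95% interval −0.13 to 1) did not pass the test (limma adjusted p = 0.295). BIRC2 was 2.23, 2.2 and 1.48 times as abundant as BIRC3 in the GapNC libraries and 3.11, 2.99 and 2.44 times in GapC9-labelled libraries. This ratio did not overlap between the groups, and the difference between the genes' changes was not tested.
The promoter windows of the 3 IAP genes are printed together, since BIRC2 and XIAP met a threshold and the adjacent BIRC3 did not. They span chr11:102346964-102347263 for BIRC2, chr11:102317234-102317533 for BIRC3 and chrX:123859458-123859757 for XIAP (GRCh38.p14, plus strand, RefSeq). The capitals mark the cyclic AMP response element TGACGTCA in BIRC2 and a pair of matches to the degenerate κB consensus in BIRC3:
BIRC2: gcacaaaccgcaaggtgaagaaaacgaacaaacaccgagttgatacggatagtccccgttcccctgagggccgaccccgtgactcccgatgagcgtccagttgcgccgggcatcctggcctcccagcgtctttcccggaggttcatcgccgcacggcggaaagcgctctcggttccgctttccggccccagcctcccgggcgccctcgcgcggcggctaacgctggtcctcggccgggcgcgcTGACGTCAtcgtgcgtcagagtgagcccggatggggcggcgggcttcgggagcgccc
BIRC3: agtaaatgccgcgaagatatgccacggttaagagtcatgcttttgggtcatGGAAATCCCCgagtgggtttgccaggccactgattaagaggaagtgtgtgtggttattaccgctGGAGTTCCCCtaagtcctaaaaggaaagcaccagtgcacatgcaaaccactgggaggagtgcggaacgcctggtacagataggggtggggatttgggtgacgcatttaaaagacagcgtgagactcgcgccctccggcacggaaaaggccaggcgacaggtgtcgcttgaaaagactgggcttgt
XIAP: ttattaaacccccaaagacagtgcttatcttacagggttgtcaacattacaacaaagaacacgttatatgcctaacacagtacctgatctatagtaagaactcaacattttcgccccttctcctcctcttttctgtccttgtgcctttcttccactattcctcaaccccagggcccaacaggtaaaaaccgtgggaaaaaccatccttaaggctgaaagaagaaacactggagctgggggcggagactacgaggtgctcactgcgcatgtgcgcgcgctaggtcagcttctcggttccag
In BIRC2 the motif TGACGTCA began 7 bases before the transcript start, and 1.85% of the 35116 windows held it on either strand. In BIRC3 the κB matches began 199 and 135 bases before the start. A pair or more of κB matches was found in 2.42% of windows, and at least 1 match in 14.0%. BIRC2 and XIAP held no κB match, and XIAP held none of the cyclic AMP, FOXO and κB motifs in this window. The windows of BIRC2, BIRC3 and XIAP held 40, 15 and 10 CpG dinucleotides. The letters describe the windows and say nothing of binding in these cells.

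DIABLO (ENSG00000284934, chr12:122207662-122227534, minus strand) encodes SMAC. Its row also names AC048338.1 and VPS33A, and 13 of its 23 transcripts belong to DIABLO. The FPKM of this joined locus was 7.09, 7.42 and 6.51 in the GapNC libraries and 7.07, 7.56 and 8.27 in GapC9-labelled libraries. The values overlapped, and the fitted log2 change was 0.12 (standard error 0.11, the smallest of the set, 95% interval −0.15 to 0.39, limma adjusted p = 0.536). The summed FPKM of XIAP, BIRC2 and BIRC3 was 16.6, 25.9 and 20.1 in the GapNC libraries and 34.4, 40 and 36.8 in GapC9-labelled libraries. DIABLO over this sum was 0.427, 0.287 and 0.323 against 0.206, 0.189 and 0.225. Both quantities were separated between the groups, and neither was given a test. BIRC2 and XIAP were each separated on their own, and the ratio sets the nearly level DIABLO locus over the same sum, so neither is a further result.

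**Figure D2:**
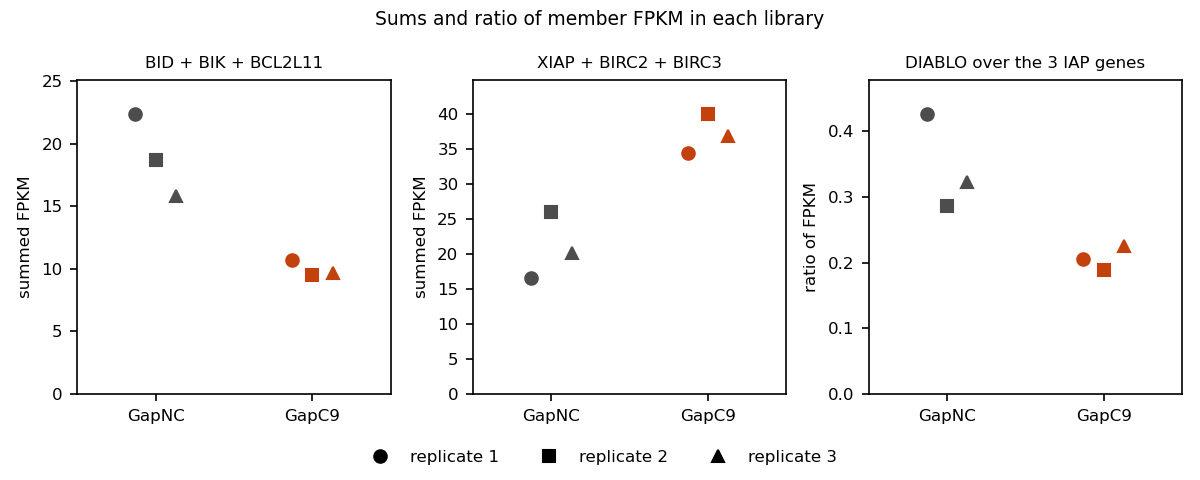
Summed FPKM of BID, BIK and BCL2L11 (left) and of XIAP, BIRC2 and BIRC3 (center). The right panel gives the ratio of the DIABLO locus to the sum in the center. Axes are linear from 0, with the GapNC libraries in gray and the libraries labelled GapC9 in orange. Each symbol is 1 library. The sums on the left were 15.8 to 22.4 against 9.54 to 10.7 FPKM, and those in the center 16.6 to 25.9 against 34.4 to 40 FPKM.

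**Figure D3:**
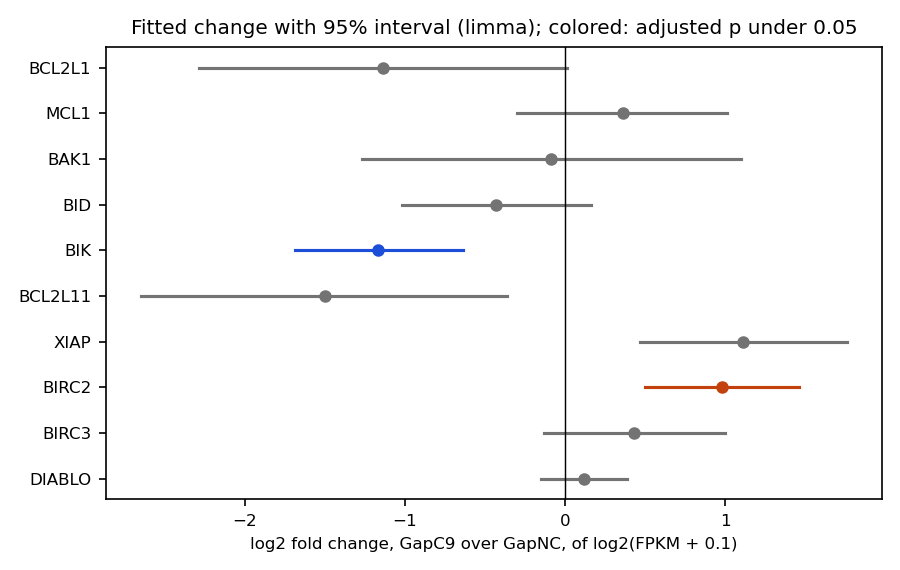
Fitted log2 fold change of the libraries labelled GapC9 over GapNC for each gene (points) with its 95% interval from limma (lines), on log2(FPKM + 0.1). The genes past an adjusted p of 0.05 are colored, BIK in blue (−1.17) and BIRC2 in orange (0.98). The intervals of XIAP (0.47 to 1.76) and BCL2L11 (−2.65 to −0.36) also lay to one side of 0.

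The levels were also ranked within each group, with the joined loci standing for MCL1 and DIABLO. In the GapNC libraries BCL2L1 came first without overlapping the next, and BCL2L11 and XIAP came last, each without overlapping the one above. Between the MCL1 locus and BID, each neighbor in the order (MCL1, BAK1, BIRC2, BIK, DIABLO, BIRC3, BID) overlapped the next. In the libraries labelled GapC9 the order was BCL2L1, MCL1, BIRC2, BAK1, BIRC3, DIABLO, BID, XIAP, BIK and BCL2L11. There BIRC2 lay above BAK1, DIABLO above BID, and BIK above BCL2L11 without overlap, whereas the other neighbors overlapped. BIK was in place 5 of 10 in the GapNC libraries and in place 9 in GapC9-labelled libraries, while XIAP was in place 10 and in place 8.

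The libraries differed in how level, relative to the other libraries, related to GC content. For 10117 loci averaging 1 FPKM or more, the deviation of log2(FPKM + 0.1) from the locus mean over all 6 libraries was taken. Its Spearman correlation with GC content was computed in each library. It was 0.616, 0.00964 and −0.104 in GapNC replicates 1 to 3 and 0.0287, −0.336 and −0.376 in the replicates labelled GapC9. The ranges of the groups overlapped only because GapC9 replicate 1 (0.0287) lay above all GapNC libraries but replicate 1. At each replicate number the library labelled GapC9 had the lower correlation. The GC content was 56.0% for BIK and 48.4% for BCL2L11, and 47.6% for XIAP and 42.0% for BIRC2. The genes lower in the libraries labelled GapC9 (BIK and BCL2L11) thus had a higher GC content than the higher genes, the same direction as the group difference in correlation. After a GC correction chosen with the values in view, the log2 fold change was −0.98 for BIK (limma adjusted p = 0.0171), 0.92 for BIRC2 (adjusted p = 0.0225) and 1.15 for XIAP (adjusted p = 0.0418). BCL2L11 was at −1.45 (adjusted p = 0.103).

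**Figure D4:**
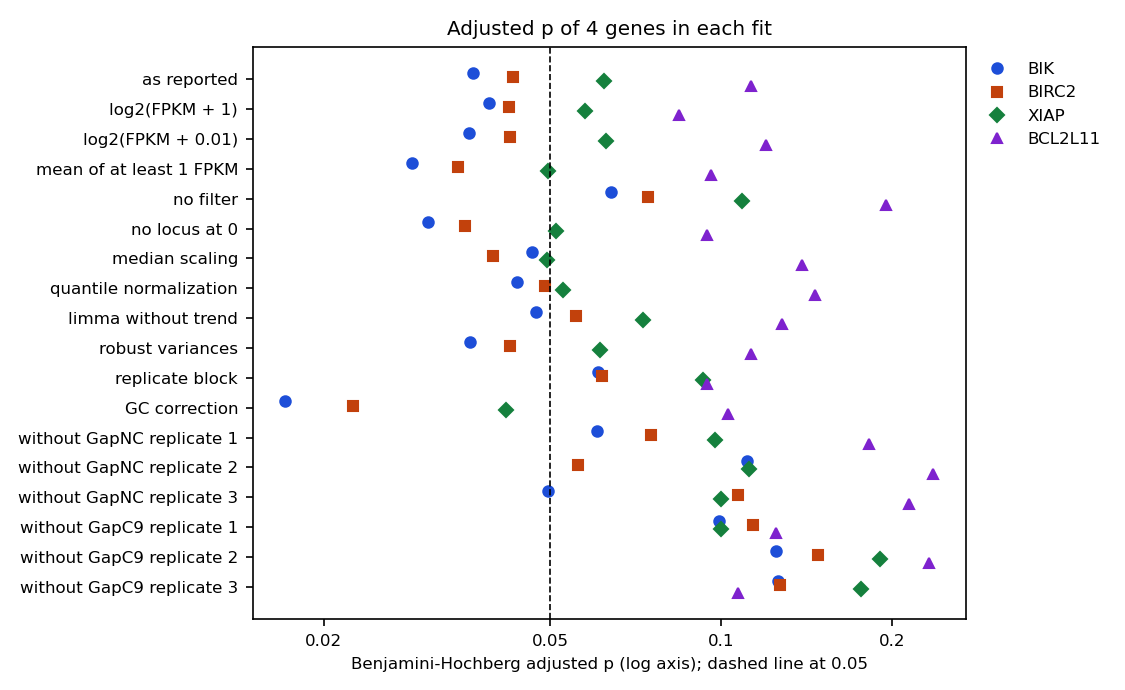
Benjamini-Hochberg adjusted p (log axis) of BIK, BIRC2, XIAP and BCL2L11 in the fit reported and in each alternative, with a dashed line at 0.05. BIK lay left of the line in 10 of 17 alternatives, BIRC2 in 8, XIAP in 3 and BCL2L11 in 0, and with 1 library left out only BIK did so, in 1 of 6 fits.

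Other genes of the pathway were taken from lists of known members. The rest of the BCL2 family covered 17 genes, of which 16 were listed and 14 tested. By limma, 0 passed the adjusted threshold and 1 an unadjusted p under 0.05 (25.9% of all loci did), and the median log2 fold change was 0.09. The most abundant were PMAIP1, which encodes the MCL1-binding protein NOXA (24.7 to 30.7 FPKM in GapNC and 26.4 to 37.7 FPKM in the libraries labelled GapC9), BCL2L12 (13.6 to 18.1 against 11.9 to 15.5 FPKM) and BCL2L2, which is joined with PABPN1 (12.2 to 15.9 against 7.69 to 13 FPKM). All 3 overlapped between the groups. HRK, a BH3-only gene named after its values were seen, was at 1.1, 1.16 and 1.06 FPKM in GapNC and at 1.67, 1.55 and 1.7 FPKM in the libraries labelled GapC9 (log2 fold change 0.53, limma adjusted p = 0.0541). HRK passed the adjusted threshold after median scaling (adjusted p = 0.0375), quantile normalization (0.0395) and the GC correction (0.0158).

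The rest of the IAP genes and their antagonists covered 8 genes, of which 5 were tested. None passed the adjusted threshold of limma and 1 had an unadjusted p under 0.05. The groups were separated for 3 of the 5, all lower, beside 34.2% of all loci separated, most of them lower (21.6%). BIRC5, the mitotic gene for survivin, was at 39.9 to 46.6 FPKM in GapNC and at 36 to 39 FPKM in the libraries labelled GapC9. BIRC6 was at 6.39 to 7.3 against 5.98 to 7.17 FPKM. HTRA2, which encodes a mitochondrial protease that also binds IAPs, was at 8.95, 5.26 and 7.54 against 4.55, 3.88 and 4.12 FPKM (log2 fold change −0.75, limma adjusted p = 0.0903). The median of these 5 was −0.2.

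For cytochrome c release and the apoptosome, all 13 genes were tested. None passed the adjusted threshold of limma, and 4 had an unadjusted p under 0.05, a share near the 25.9% of all loci. These 4, named after their values were seen, were APAF1 (log2 fold change −0.83) and CASP9 (−0.6), which form the apoptosome with cytochrome c, and CASP8 (0.4) and AIFM1 (0.3), with adjusted p of 0.0945, 0.0718, 0.0964 and 0.0989. AIFM1 passed after median scaling (adjusted p = 0.0441) and the GC correction (0.0192), and APAF1 after the GC correction (0.0295). APAF1 was at 1.2, 1.83 and 2.01 FPKM in GapNC and at 0.844, 1.08 and 0.742 FPKM in the libraries labelled GapC9. CASP9, which XIAP inhibits, was at 1.32, 1.1 and 1.01 against 0.704, 0.675 and 0.768 FPKM. Both genes were separated between the groups, as were CASP8, AIFM1 and VDAC1 in the other direction. In this list 3 genes were thus separated higher and 2 lower, beside 12.6% and 21.6% of all loci. The most abundant genes were VDAC1 (63.8 to 65.6 against 65.8 to 94.5 FPKM), VDAC2 (58.7 to 61 against 58.1 to 61.6 FPKM) and CYCS, the gene for cytochrome c itself (48 to 55 against 50.8 to 54.4 FPKM).

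Genes for the turnover of MCL1 and the IAP proteins numbered 10, of which 1 passed the adjusted threshold, a share near that of all loci (6.99%). HUWE1, a ubiquitin ligase known to mark MCL1 for degradation, was at 43.6, 39.4 and 37.3 FPKM in GapNC and at 22.3, 19.7 and 20.9 FPKM in the libraries labelled GapC9. The lowest GapNC library was well above the highest library labelled GapC9. Its mean fell from 40.1 ± 3.18 to 21 ± 1.3 FPKM (SD, n = 3), and the fitted log2 fold change was −0.93 (standard error 0.1, limma adjusted p = 0.0164). With each library left out, the adjusted p was 0.0264 and 0.0496 without GapNC replicates 1 and 3. It was 0.0662 without GapNC replicate 2, and 0.0586, 0.0755 and 0.0701 without GapC9 replicates 1, 2 and 3. The most abundant others were UBE2K (14.5 to 32.7 against 37.5 to 44.1 FPKM) and UBE2D3 (16.3 to 22.4 against 20.8 to 32.4 FPKM). UBE2K was separated, with an adjusted p of 0.138.

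A list of 15 genes covered the TNF receptor complex that recruits BIRC2 and BIRC3 together with NF-κB pathway genes. Of these, 1 passed, again near the 6.99% of all loci. TNFAIP3, the gene for the ubiquitin-editing enzyme A20 that limits NF-κB signaling, was at 2.51, 2.41 and 1.74 FPKM in GapNC and at 5.27, 5.16 and 5.24 FPKM in the libraries labelled GapC9. The libraries labelled GapC9 were nearly equal and lay above all others. The mean rose from 2.22 ± 0.418 to 5.22 ± 0.0574 FPKM (SD, n = 3), a ratio of 2.35, with a fitted log2 change of 1.22 (standard error 0.16, limma adjusted p = 0.021). It was the only gene of the 15 to meet the fold rule as well. The adjusted p was 0.0331 and 0.0496 without GapNC replicates 1 and 3. It was 0.0721 without GapNC replicate 2, and 0.0762, 0.0978 and 0.0885 without GapC9 replicates 1, 2 and 3.
The most abundant genes of this list overlapped between the groups. NFKB2 was at 32.5 to 45 FPKM in GapNC and at 26.9 to 32.5 FPKM in the libraries labelled GapC9, NFKBIA, another NF-κB target, at 15.1 to 20.1 against 15.3 to 21 FPKM, and TNFRSF1A, the receptor, at 13.3 to 16.2 against 11.6 to 16.9 FPKM. CFLAR (log2 fold change 0.67) and RELB (−0.77), named after their values were seen, had an unadjusted p under 0.05 and adjusted p of 0.138 and 0.148. The median of the 15 genes was −0.19.

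**Figure D5:**
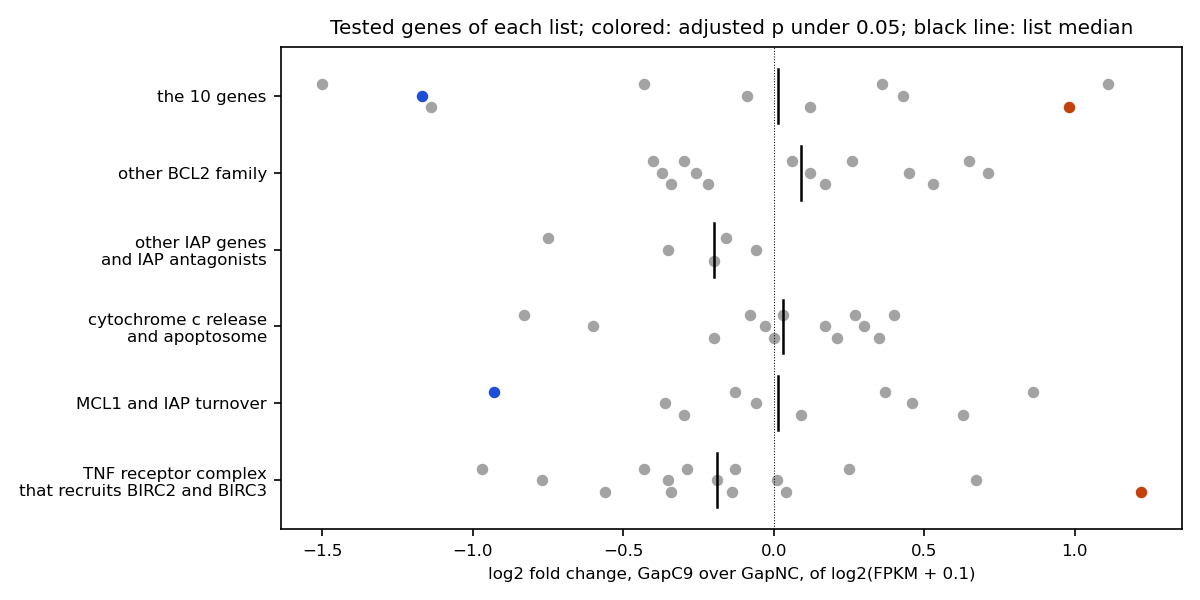
Log2 fold change of the libraries labelled GapC9 over GapNC for the tested genes of each list (points), with the list median as a black line, on log2(FPKM + 0.1). The points are spread vertically for legibility only. Genes past an adjusted p of 0.05 are colored, namely BIK and HUWE1 (blue, lower) and BIRC2 and TNFAIP3 (orange, higher), and the list medians lie between −0.2 and 0.09.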

How the data were processed

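RNA-seq was measured in 6 libraries of HCT-116 cells, grouped by the transfected GapmeR in the labels, with table columns matched by name (0 unused columns). The authors aligned reads with HISAT and deposited FPKM values from StringTie, with no counts, so no counting interval is given and the edgeR test named by the study was not rerun. The submitters' notes list HISAT2 2.0, StringTie 1.3.0, Bowtie 0.12.2 and the build mm8, although the table carries human identifiers. FPKM is relative to a library's mapped fragments, which ties each value to the abundant RNAs, and StringTie may join neighboring genes.

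No further scaling was applied. With R 4.3.3, limma 3.58.1 (lmFit, eBayes with trend) was fitted to log2(FPKM + 0.1) for the 16028 loci whose mean reached 0.1 FPKM, with Benjamini-Hochberg adjustment over all. This scale understates changes of low genes. The fit was tested on simulated data. Alternatives covered pseudocount, filter, scaling, variance model, replicate block, fold measure, each library left out and, added with the values in view, GC content (lowess, span 0.3). Depth was estimated from the commonest value of FPKM times length, within a preset low window, at single-transcript loci.

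Coordinates and GC content came from GENCODE v29 (GRCh38) through Ensembl identifiers, since the deposited rows carry none. Promoters came from RefSeq (GRCh38.p14), with entries for 8 members but not BIK or MCL1. The window nearest the annotated gene start was taken, and motifs were chosen with the sequences in view and searched on both strands. Figures were drawn in Python 3.11.15 with pandas 2.3.3 and matplotlib 3.10.9. The members and lists were chosen with earlier results of these data known. Named genes were all members, each list gene past a call rule and the 3 most abundant of each list.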

Additional observations from a re-analysis of the deposited data

How the results depend on the processing

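Among the 10 genes, the count past the adjusted threshold (1 higher, 1 lower) became 2 higher among loci averaging 1 FPKM or more, after median scaling and after the GC correction, XIAP being added each time. It became 0 higher without the variance trend, and 0 higher and 0 lower without the filter. With the replicate number as a block (replicate block) it was 0 higher and 0 lower, as it was over all loci. Deviations from the group mean correlated weakly between same-numbered libraries (0.097, 0.0398 and 0.0243). The correlation with GC content of level relative to the other libraries, however, fell from replicate 1 to replicate 3 in both groups. Whether same-numbered libraries were handled together is not given in the sources used here. Genes past the fold rule (1 higher) became 2 after median scaling and after quantile normalization, and separated higher genes (2) became 4 after median scaling. With each library left out, the adjusted count was 0 higher in all 6 fits and 0 to 1 lower, the fold rule gave 0 to 2 higher and 1 to 3 lower, and 2 to 4 genes were separated higher and 2 to 3 lower. BAK1 changed sign after median scaling (0.06), after the GC correction (0.14), and with 1 library left out (−0.49 to 0.26). It was 0.26 without GapNC replicate 3, and 0.04 and 0.18 without GapC9 replicates 1 and 2. The other 9 genes kept their direction in all 17 alternatives. Over all loci, adjusted calls were 303 higher and 817 lower, but 146 and 346 without the filter, 347 and 516 after quantile normalization, 1055 and 1233 after the GC correction, and 16 to 240 and 16 to 570 with 1 library left out. Calls by the fold rule were 336 and 693, but 116 and 380 among loci averaging 1 FPKM or more, 555 and 983 without the filter, 514 and 406 after median scaling, and 470 and 425 after the GC correction. The cause of these shifts was not tested. The standard error was largest for BAK1 (0.48), BCL2L1 (0.47) and BCL2L11 (0.47). The counts of the pathway lists moved as well. The other BCL2 family genes had 1 higher call after median scaling, quantile normalization and the GC correction, and the cytochrome c list 1 higher after median scaling and 1 higher and 1 lower after the GC correction. The TNF receptor list had 2 higher after the GC correction. The calls of the turnover and TNF receptor lists fell to 0 with the replicate block and in 4 of 6 fits that left out 1 library.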

Other observations

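The deposited list of transcripts let the GapmeRs be set against the members' spliced RNAs. For MCL1 and DIABLO all annotated transcripts of the joined locus were searched, including those of other genes. The longest run of bases of the 16-base CASC9 GapmeR complementary to a member was 10, in BCL2L11 and in BIRC3, a length reached by 2.3% of the 15909 loci searched. It was 6 in BIK and 7 to 8 in the other members. For the control GapmeR the longest run was 7 to 8 in the members other than BIK. In BIK no run longer than 5 was found, and 5 was the lowest value the search could return. The fitted log2 change was −1.5 for BCL2L11 and 0.43 for BIRC3, with limma adjusted p of 0.113 and 0.295. Introns were not searched, and the part of such pairing in any result was not tested.

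Antisense and overlapping genes are annotated over 7 of the members. Of those with a row of their own, B3GNT4 (over DIABLO) was listed at 0.636 to 1.38 FPKM and GGNBP1 (over BAK1) at 0.0123 to 0.0997 FPKM.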
